A study of Mus musculus with 12 samples.

Results

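The 10 genes described here encode the ligands and receptors of 2 vascular signalling systems in the mouse heart, the vascular endothelial growth factors (Vegfa, Vegfb, Vegfc) with their receptors (Kdr, Flt1, Flt4) and the angiopoietins (Angpt1, Angpt2) with the TIE receptors (Tek, Tie1). They were chosen by symbol, and all 10 were found, each in a single row, among the 55401 genes of the counts table. RNA from mouse left ventricle was sequenced in 12 libraries, 3 for each of 4 groups: Prkca T497A mice after transverse aortic constriction (TAC), Prkca T497A mice after sham surgery, wild-type (WT) mice after TAC and WT mice after sham surgery. TAC narrows the aorta and loads the left ventricle with pressure. T497A names a substitution in protein kinase C alpha, the product of Prkca. All mice were operated on at 10 weeks of age and sampled 5 weeks later, at 15 weeks. The sources used here do not give strain, sex, zygosity or the time of day of sampling, and the substitution cannot be checked in gene counts. Each of the 12 titles carries a number of its own, but the labels do not state that it marks a different mouse, so p-values cover only the spread between these libraries, which may be technical in part.

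The VEGF proteins are secreted dimers that bind tyrosine kinase receptors on endothelial cells. VEGFA signals mainly through KDR (VEGFR2), which drives endothelial proliferation and permeability. FLT1 (VEGFR1) binds VEGFA tightly, signals weakly and also exists as a soluble form that traps ligand. VEGFB binds FLT1, and VEGFC binds FLT4 (VEGFR3), which is best known from lymphatic vessels. ANGPT1, made largely by cells outside the endothelium, activates the receptor TEK (TIE2) and keeps vessels quiescent. ANGPT2, stored and released by endothelial cells, is a context-dependent antagonist of TEK, and TIE1 is a related receptor that associates with TEK.

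The libraries held between 36862004 and 46898344 counts. The share of mitochondrially encoded transcripts was lower after TAC, at 24.6 to 26.1% in T497A TAC against 28.3 to 30.9% in T497A sham, and 19.6 to 20.9% in WT TAC against 25.1 to 29.0% in WT sham. The TMM factors were 0.968 to 1.02 in T497A TAC against 0.933 to 0.970 in T497A sham, and 1.06 to 1.12 in WT TAC against 0.934 to 0.992 in WT sham. With mitochondrial genes left out, 0 of the 10 genes were called in T497A TAC against T497A sham and 3 in WT TAC against WT sham, as with them. The labels call the cell type cardiomyocyte, yet the protocol starts from cardiac tissue and markers of other cells were present in every library: the 14 pan-endothelial markers summed to between 675 and 888 CPM (counts scaled to library size with edgeR's TMM factors), and the 8 fibroblast markers to between 1642 and 2696 CPM. No gene of these lists was at 0. In such bulk RNA, fewer cells of a type and less RNA per cell cannot be told apart. All 10 genes passed the filter on low counts. Changes below are log2 fold changes ± standard error from edgeR's quasi-likelihood test fitted on all 15764 tested genes, and a gene is called at a Benjamini-Hochberg adjusted p under 0.05 over those genes.

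After TAC, none of the 10 genes was called in T497A mice, while Angpt1 and Vegfb fell and Flt4 rose in WT mice. None was called between the genotypes after TAC or after sham. Averaged over both genotypes, TAC lowered Angpt1 and Vegfb and raised Vegfc. Vegfa, Kdr, Flt1, Angpt2, Tek and Tie1 were called in no comparison. For T497A TAC against T497A sham 0 of the 10 were called, with 4 at an unadjusted p under 0.05, where the shares over all genes were 0.114% and 11.7%. DESeq2 called 1 here and limma-voom 0. For the WT pair, 1 gene was called higher and 2 lower in WT TAC against WT sham, where 25.0% of all tested genes were called, 12.3% higher and 12.6% lower. For T497A TAC against WT TAC 0 were called and 1 had an unadjusted p under 0.05, against 8.70% and 24.0% of all genes, and DESeq2 called 1 and limma-voom 0. For T497A sham against WT sham 0 were called and 0 had an unadjusted p under 0.05, against 0.0254% and 3.03% of all genes, and DESeq2 and limma-voom each called 0. The TAC average called 1 gene higher and 2 lower, against 22.4% of all genes, 11.2% in each direction. The share of these genes that was called in WT was therefore near that of the transcriptome. Their median log2 fold change was 0.03 in T497A and -0.01 in WT, where the median of all tested genes was 0.01 in both.

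**Figure D1:**
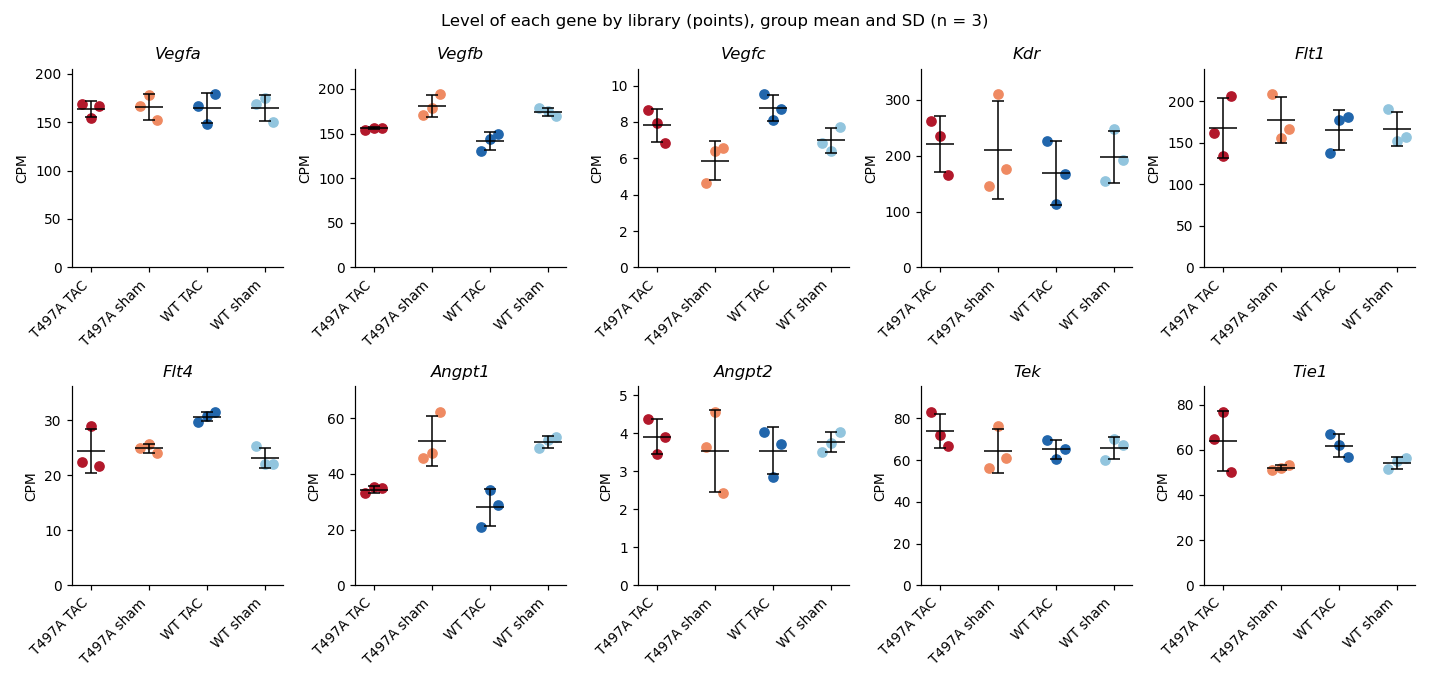
CPM of each gene (vertical axis, from 0) in the T497A TAC, T497A sham, WT TAC and WT sham groups; points are libraries, the horizontal bar is the group mean and the error bar 1 SD (n = 3). The Angpt1 and Vegfb points of both TAC groups lie below those of their sham groups, while the Kdr points spread from 113 to 309.8 CPM with no order by group.

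Divided by exon length, the order of levels was led by the ligands Vegfb, with a mean over the 12 libraries of 102 CPM per kb, and Vegfa, with 38.4 CPM per kb. The receptor genes followed, Kdr at 22.1, Tek at 14.3, Flt1 at 12.5 and Tie1 at 11.8 CPM per kb. Angpt1 stood at 7.95, Flt4 at 3.13, Vegfc at 3.00 and Angpt2 at 0.999 CPM per kb. The ranges over libraries did not overlap between Vegfb and Vegfa, between Vegfa and Kdr, between Angpt1 and Flt4, or between Vegfc and Angpt2. The other neighbours overlapped: Tek lay above Flt1 in 8 of 12 libraries, Flt1 above Tie1 in 9 and Flt4 above Vegfc in 8. The length of Vegfa comes from an annotation whose version of that gene differs from the one in the counts table.

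**Figure D2:**
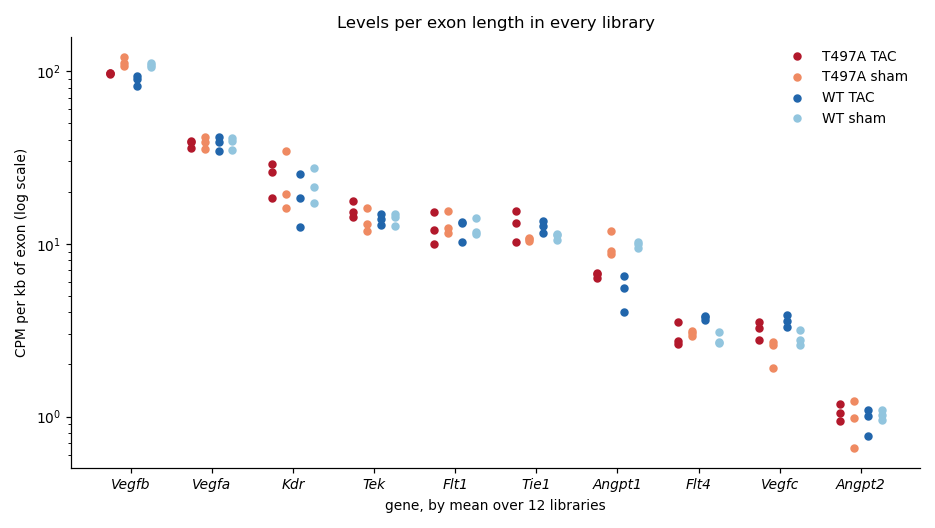
Level of each gene per exon length (CPM per kb, log axis) in each library, coloured by group, with genes ordered by their mean over the 12 libraries. Vegfb (mean 102) and Vegfa (mean 38.4) stand highest and Angpt2 (mean 0.999) lowest.

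Among the VEGF ligands, Vegfa (chr17:46016993-46032369, minus strand, GRCm38), the main angiogenic ligand, kept to a narrow range. It stood at 169, 154 and 167 CPM in T497A TAC, 166.5, 179 and 152 CPM in T497A sham, 167, 148 and 179 CPM in WT TAC, and 169, 175 and 149.7 CPM in WT sham. The 4 groups overlapped throughout. Averaged over genotypes, the TAC change was -0.01 ± 0.06, with a 95% interval from -0.14 to 0.12.

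Vegfb (chr19:6982473-6987651, minus strand), a ligand of FLT1 that is abundant in heart muscle, was lower after TAC. Its levels were 154, 157 and 157 CPM in T497A TAC against 170.4, 179 and 194 CPM in T497A sham, and 131, 144 and 149.8 CPM in WT TAC against 179, 175 and 169.7 CPM in WT sham. In each genotype every TAC library lay below every sham library. The change was -0.21 ± 0.07 in T497A (adjusted p = 0.238), -0.30 ± 0.07 in WT (adjusted p = 0.00523) and -0.26 ± 0.05 averaged over genotypes (adjusted p = 0.0017). The effects of the genotypes differed by 0.09 ± 0.10 (adjusted p = 0.716), which does not show that they were alike.

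Vegfc (chr8:54077606-54187096, plus strand), the lymphangiogenic ligand of FLT4, stood at 8.66, 7.95 and 6.83 CPM in T497A TAC against 4.65, 6.38 and 6.58 CPM in T497A sham. In WT it stood at 9.51, 8.08 and 8.69 CPM after TAC against 6.83, 6.39 and 7.73 CPM after sham. The TAC libraries lay above the sham libraries of their genotype in both cases. The change was 0.41 ± 0.15 in T497A (adjusted p = 0.311) and 0.33 ± 0.15 in WT (adjusted p = 0.131). Averaged over genotypes it was 0.37 ± 0.11 (adjusted p = 0.0229). The call was lost without WT sham replicate 1, WT sham replicate 2, T497A sham replicate 1, WT TAC replicate 1 or T497A TAC replicate 1, each left out alone, with adjusted p up to 0.0575.

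Among the VEGF receptors, Flt4 (chr11:49609263-49652739, plus strand), the receptor for VEGFC, rose after TAC in WT. In T497A it stood at 22.5, 29.0 and 21.6 CPM after TAC against 24.9, 25.7 and 24.1 CPM after sham, a change of -0.03 ± 0.10 (adjusted p = 0.940). In WT it stood at 29.7, 30.8 and 31.4 CPM after TAC against 25.3, 22.1 and 22.0 CPM after sham, a change of 0.41 ± 0.10 (adjusted p = 0.0112). The T497A groups overlapped, whereas the WT groups did not. The difference between the genotypes' effects was -0.44 ± 0.15, with an unadjusted p of 0.0101 from edgeR's test and an adjusted p of 0.147, so 0 of the 10 genes passed for this difference, where 1.57% of all genes did. Flt4 was the 1 gene with an unadjusted p under 0.05 for it, against 16.8% of all genes, and DESeq2 and limma-voom each called 0. T497A TAC lay below WT TAC by -0.33 ± 0.10 (adjusted p = 0.0642), with no overlap of the libraries. With all libraries, Flt4 was called for T497A TAC against WT TAC by DESeq2 (-0.33, adjusted p = 0.0335) and without a filter on low counts (-0.33, adjusted p = 0.0243). Without T497A TAC replicate 2, at 29.0 CPM, the change against WT TAC was -0.47 (adjusted p = 0.00564) and the difference of effects was -0.58 (adjusted p = 0.0215). That library also had the highest pan-endothelial sum, 888 CPM, against 767 and 675 CPM in the other T497A TAC libraries. Scaled to the pan-endothelial markers, which moved the median of all genes in WT TAC against WT sham to -0.14, the Flt4 change in WT was 0.25 (adjusted p = 0.259). The 6 lymphatic endothelial markers summed to 172 to 176 CPM in T497A TAC against 158 to 199 CPM in T497A sham, and to 133 to 156 CPM in WT TAC against 164 to 189.6 CPM in WT sham. Most of that sum was Prox1, a lymphatic transcription factor also found in heart muscle, whose mean was 126 CPM in T497A TAC against 120.3 CPM in T497A sham and 84.7 CPM in WT TAC against 131 CPM in WT sham (-0.63 in WT, adjusted p = 0.0585). The other 5 markers had positive changes in WT, and the mean log2 CPM of the 6 was 3.92 to 4.08 in WT TAC against 3.57 to 3.74 in WT sham, so sum and mean ran in opposite directions there. Of the 6 markers 0 were called in T497A, with 1 at an unadjusted p under 0.05, and 2 rose in WT, Pdpn by 1.38 (adjusted p = 0.000183) and Ccl21a by 0.80 (adjusted p = 0.00273). The shares over all genes were 0.114% and 11.7% in T497A, and 12.3% called higher in WT. The part of lymphatic or other endothelial cells in the Flt4 change was not tested.

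Kdr (chr5:75932827-75978458, minus strand), the main signalling receptor for VEGFA, varied most between libraries of the same group. It stood at 261, 236 and 166 CPM in T497A TAC, 145, 309.8 and 175 CPM in T497A sham, 227, 113 and 166 CPM in WT TAC, and 156, 247 and 192 CPM in WT sham. All 4 groups overlapped. The TAC change averaged over genotypes was -0.08 ± 0.25, with a 95% interval from -0.65 to 0.49, so a moderate change of Kdr in either direction was not detectable with these libraries.

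Flt1 (chr5:147561604-147726011, minus strand), the high-affinity receptor for VEGFA and VEGFB, stood at 162, 134 and 206 CPM in T497A TAC, 208, 156 and 167 CPM in T497A sham, 138, 178 and 181 CPM in WT TAC, and 191, 153 and 157 CPM in WT sham. These groups overlapped too, and the TAC change averaged over genotypes was -0.04 ± 0.12. The counts do not separate the soluble from the membrane form. The log2 ratio of Flt1 to Kdr averaged -0.40 ± 0.62 in T497A TAC, -0.18 ± 0.76 in T497A sham, 0.02 ± 0.69 in WT TAC and -0.23 ± 0.50 in WT sham (SD, n = 3 each). Averaged over genotypes TAC moved it by 0.02, with p = 0.97 in a 2-sided exact permutation test over 400 arrangements.

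**Figure D3:**
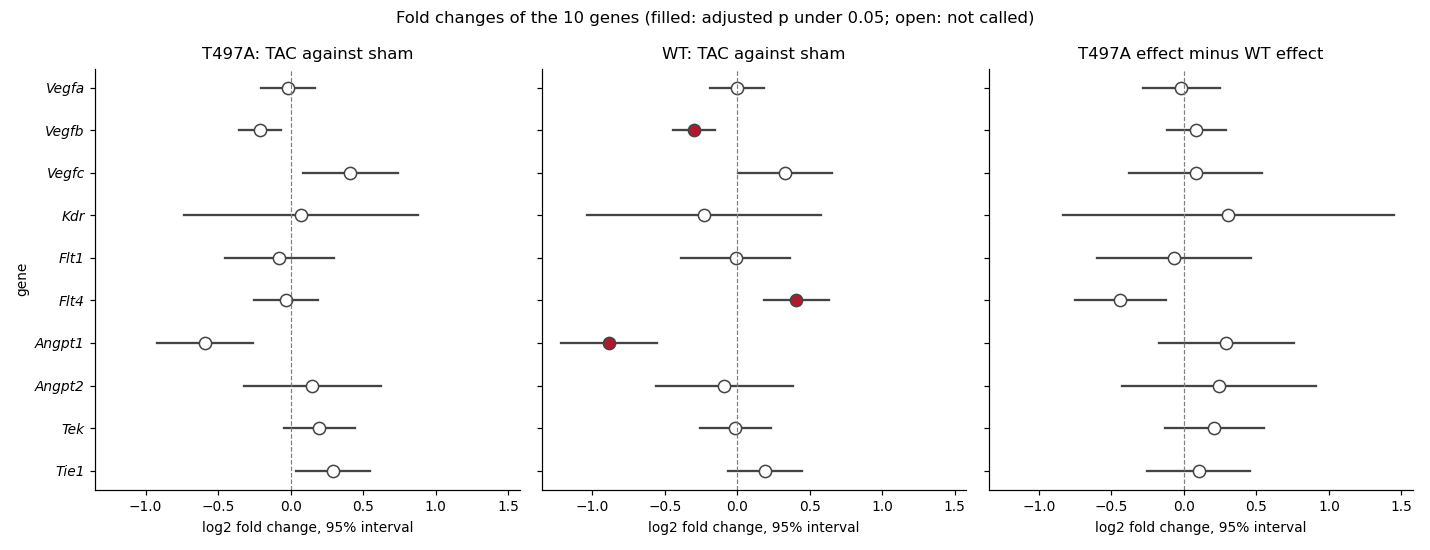
log2 fold change of each gene (horizontal axis, line: 95% interval) for TAC against sham in T497A, for TAC against sham in WT and for the T497A effect minus the WT effect; filled points have an adjusted p under 0.05. Vegfb, Flt4 and Angpt1 are filled in WT and no gene is filled in the other panels.

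Of the angiopoietins, Angpt1 (chr15:42424723-42676977, minus strand), the activating ligand of TEK, changed most of the 10 genes. It stood at 33.0, 35.3 and 34.9 CPM in T497A TAC against 45.7, 47.4 and 62.1 CPM in T497A sham. In WT it stood at 21.1, 34.0 and 28.7 CPM after TAC against 49.2, 52.1 and 53.1 CPM after sham. In each genotype all TAC libraries lay below all sham libraries. The change was -0.59 ± 0.15 in T497A (adjusted p = 0.167) and -0.88 ± 0.15 in WT (adjusted p = 0.00125), which is 1.84-fold lower. Averaged over genotypes it was -0.74 ± 0.11 (adjusted p = 0.000472). The genotypes' effects differed by 0.29 ± 0.21 (adjusted p = 0.545). Angpt1 was called in WT under each alternative, with changes between -1.05 and -0.71. In T497A it was called by DESeq2 (adjusted p = 0.0181) and without a filter on low counts (adjusted p = 0.00597).

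Many cardiomyocyte markers were lower after TAC in WT, as Angpt1 and Vegfb were. Of the 10 markers, 0 were called in T497A, with 6 at an unadjusted p under 0.05, and 7 were called lower in WT, with median changes of -0.21 and -0.48. The shares over all genes were 0.114% and 11.7% in T497A, and 12.6% called lower in WT. Between T497A TAC and WT TAC 3 markers were called higher, where 8.70% of all genes were called. There 5 markers had an unadjusted p under 0.05, against 24.0% of all genes. For the difference of effects 1 marker was called and 4 had an unadjusted p under 0.05, against 1.57% and 16.8%. The TAC change was positive for 2 of the 10 markers in each genotype, in WT for Actn2 (0.23, adjusted p = 0.0656) and Actc1 (0.05, adjusted p = 0.746), neither of them called. Their sum was 57464 to 60420 CPM in T497A TAC against 59134 to 69598 CPM in T497A sham, and 46754 to 56374 CPM in WT TAC against 64259 to 75494 CPM in WT sham. Of the 10 pericyte markers, 1 was called higher and 1 lower in WT. Abcc9, a potassium channel subunit of mural cells and cardiac muscle, changed by -0.10 in T497A (adjusted p = 0.772) and fell by 1.04 in WT (adjusted p = 1.68e-05), a difference of 0.94 (adjusted p = 0.0109), and Cspg4, the NG2 proteoglycan, rose by 0.54 in WT (adjusted p = 0.0382). The part of these cell types in the fall of Angpt1 and Vegfb was not tested. An antisense gene, Gm17473, overlaps Angpt1 with 13 to 40 counts per library.

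Angpt2 (chr8:18690263-18741562, minus strand), the antagonist, was the lowest of the genes. It stood at 4.37, 3.46 and 3.89 CPM in T497A TAC, 3.63, 4.55 and 2.42 CPM in T497A sham, 4.03, 2.84 and 3.73 CPM in WT TAC, and 3.51, 3.75 and 4.04 CPM in WT sham. The groups overlapped, and the TAC change averaged over genotypes was 0.03 ± 0.16. Angpt2 lies within Mcph1 on the opposite strand, a gene with 302 to 455 counts per library, and the sources used here do not say whether counting used strand, so reads of this pair may not be told apart.

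The balance of both ligands, taken as the log2 ratio of Angpt2 to Angpt1 in each library, averaged -3.14 ± 0.22 in T497A TAC against -3.91 ± 0.69 in T497A sham, and -2.97 ± 0.60 in WT TAC against -3.77 ± 0.05 in WT sham (SD, n = 3 each). TAC raised the ratio by 0.76 in T497A and by 0.80 in WT, or 0.78 on average, with p = 0.005 in a 2-sided exact permutation test over 400 arrangements, the smallest p that they can give. Single libraries moved the values within a genotype: without T497A sham replicate 3 the T497A change was 0.37, and without WT TAC replicate 1 the WT change was 0.51. The average then came to 0.59 and 0.64. The ratio contains Angpt1, and Angpt2 itself was not called, so this is largely the fall of Angpt1 on another scale. The effects of the genotypes differed by -0.04 (2-sided exact permutation p = 0.935), by -0.43 without T497A sham replicate 3 (p = 0.285 in the same exact test) and by 0.25 without WT TAC replicate 1.

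Tek (chr4:94739289-94874976, plus strand), the angiopoietin receptor, stood at 82.9, 71.9 and 66.9 CPM in T497A TAC, 56.0, 76.2 and 61.1 CPM in T497A sham, 69.6, 60.7 and 65.3 CPM in WT TAC, and 59.9, 70.1 and 67.3 CPM in WT sham. The groups overlapped, and the TAC change averaged over genotypes was 0.09 ± 0.08 (adjusted p = 0.451).

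Tie1 (chr4:118471191-118490061, minus strand), its partner receptor, stood at 64.8, 76.5 and 50.2 CPM in T497A TAC against 51.1, 52.1 and 53.1 CPM in T497A sham, and at 66.8, 61.9 and 57.0 CPM in WT TAC against 51.4, 54.9 and 56.2 CPM in WT sham. T497A TAC replicate 3 lay below every T497A sham library, while the WT groups did not overlap. The change averaged over genotypes was 0.24 ± 0.08 (adjusted p = 0.0508), just outside the threshold. Tie1 was called by DESeq2 (adjusted p = 0.0359) and without a filter on low counts (adjusted p = 0.00263). Without T497A TAC replicate 3 its change was 0.31 (adjusted p = 0.00312).

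Counting separation instead of calls, 3 of the 10 genes (Vegfb, Vegfc and Angpt1) had TAC and sham libraries that did not overlap in T497A, where 15.4% of all genes did. In WT 5 of the 10 (Vegfb, Vegfc, Flt4, Angpt1 and Tie1) did so, where 42.2% of all genes did. Between T497A TAC and WT TAC it was 2 (Vegfb and Flt4), where 28.0% of all genes did, and between the sham groups 0, where 8.21% did.

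Part of the spread within groups was shared between genes. Expressed as deviations from the group means of log2 CPM, Kdr and Tek rose and fell together over the 12 libraries, with Pearson's r = 0.93 (adjusted p = 0.0167) and Spearman's rho = 0.91 (adjusted p = 0.0334) in exact permutation tests of libraries within groups, adjusted over 65 relations. Without the 2 libraries farthest out in Kdr, r was 0.92. The unadjusted p of r was 0.000772, the smallest that the 1296 arrangements can give. The 65 relations include those of Arntl and Per2, clock genes chosen after their values were seen. Per2 had the same unadjusted p of r with Kdr and with Tek, so the adjusted p of Kdr with Tek depends on these relations. For rho, Kdr with Tek had an unadjusted exact permutation p of 0.00154. Per2 had a lower one, 0.000772, with Kdr and with Tek. The adjusted p of rho for Kdr with Tek thus rests on relations chosen after values were seen. An adjustment without the clock genes was not made, so both adjusted p-values hold only for the 65 relations. Between Kdr and Flt1 r was -0.78 and rho -0.76, with r = -0.80 without the 2 farthest. This relation did not pass (adjusted exact permutation p = 0.158 for r and 0.179 for rho). Flt1 ran more strongly against Tie1, with r = -0.84, rho = -0.82 and r = -0.82 without the 2 farthest in Flt1. That relation did not pass either (adjusted exact permutation p = 0.05015 for r and 0.1505 for rho).

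Genes of the circadian clock varied along with Kdr and Tek. These genes were chosen after their values were seen, so their correlations are given without p-values. Relations of Per2 and Arntl with the ligand and receptor genes were nevertheless tested, and they count in the adjustment described above. Per2, a clock repressor, stood at 5.20, 14.5 and 36.5 CPM in T497A TAC, 41.2, 5.27 and 29.9 CPM in T497A sham, 8.22, 29.3 and 15.1 CPM in WT TAC, and 37.8, 9.47 and 18.4 CPM in WT sham. In each group the library with the most Per2 had the least Kdr, and the one with the least Per2 had the most Kdr. The deviations of Per2 correlated with those of Kdr at r = -0.95 and with those of Tek at r = -0.98. Of 15 core clock genes, 10 had a negative and 5 a positive correlation with Kdr, the positive ones including the repressor Nr1d1 (0.94) and the activators Arntl (0.89), Clock (0.83) and Npas2 (0.78). All 10 genes of a list known to respond to glucocorticoids, also added after values were seen, were negatively correlated with Kdr. Their r ran from -0.97 to -0.10, with a median of -0.85. Fkbp5, a glucocorticoid-induced chaperone, showed r = -0.94 with Kdr and 0.90 with Flt1. Values of the same library share its depth and scaling factor, and the part of clock and glucocorticoid-responsive genes in the spread of Kdr and Tek was not tested.

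**Figure D4:**
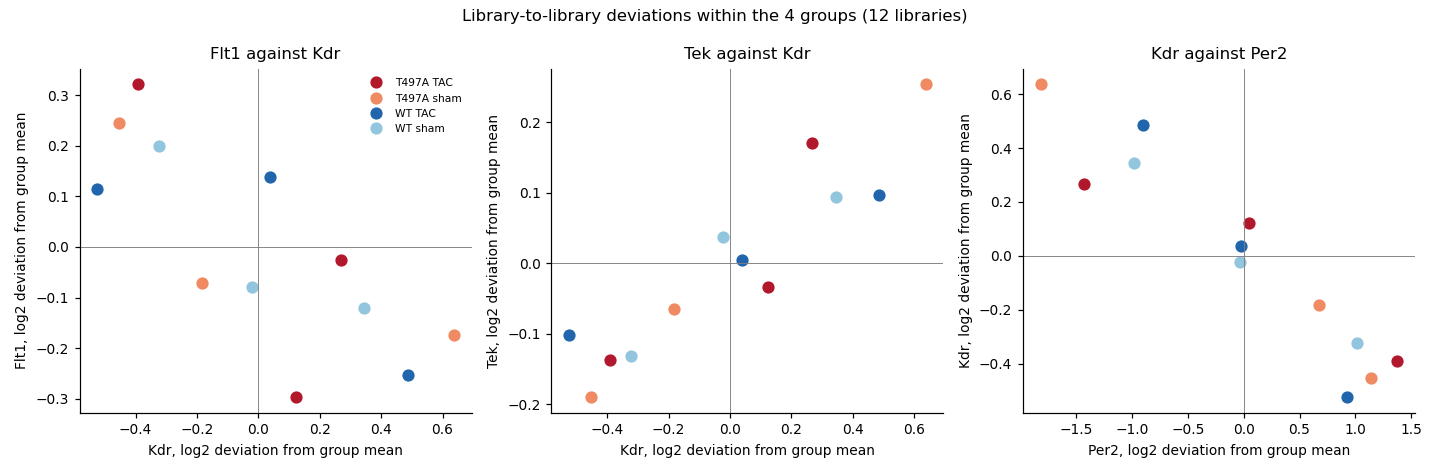
Deviations of log2 CPM from the group mean in the 12 libraries: Flt1 against Kdr, Tek against Kdr, and Kdr against Per2, coloured by group. Tek follows Kdr (r = 0.93), Flt1 has r = -0.78 with Kdr, and Kdr runs against Per2 (r = -0.95).

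The promoter windows of Kdr and Tek, which varied together, of Flt1, which did not follow them, and of Vegfb, the most abundant ligand, follow, from RefSeq on GRCm38.p6, each from 250 bases before to 50 after an annotated start, 5′ to 3′ on the gene's strand, with the ETS core GGAA or its reverse complement TTCC in capitals. The windows are chr5:75978406-75978705 (minus) for Kdr, chr4:94739039-94739338 (plus) for Tek, chr5:147725962-147726261 (minus) for Flt1 and chr19:6987602-6987901 (minus) for Vegfb.
Kdr: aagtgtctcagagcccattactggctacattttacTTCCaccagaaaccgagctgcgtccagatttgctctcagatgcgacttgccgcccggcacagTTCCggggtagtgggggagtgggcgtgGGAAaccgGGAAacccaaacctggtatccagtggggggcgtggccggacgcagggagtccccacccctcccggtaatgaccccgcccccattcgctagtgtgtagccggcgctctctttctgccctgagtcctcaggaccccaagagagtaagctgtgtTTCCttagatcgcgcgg
Tek: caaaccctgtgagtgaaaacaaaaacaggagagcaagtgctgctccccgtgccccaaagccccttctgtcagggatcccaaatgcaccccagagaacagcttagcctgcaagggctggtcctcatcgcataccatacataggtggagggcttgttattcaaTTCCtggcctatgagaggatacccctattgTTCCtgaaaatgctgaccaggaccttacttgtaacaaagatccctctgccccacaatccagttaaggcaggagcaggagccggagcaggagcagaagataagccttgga
Flt1: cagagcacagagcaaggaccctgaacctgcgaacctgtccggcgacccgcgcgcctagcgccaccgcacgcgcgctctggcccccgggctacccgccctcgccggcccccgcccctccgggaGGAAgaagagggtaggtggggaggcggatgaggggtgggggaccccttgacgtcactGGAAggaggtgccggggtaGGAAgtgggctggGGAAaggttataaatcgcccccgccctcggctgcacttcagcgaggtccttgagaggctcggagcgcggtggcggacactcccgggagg
Vegfb: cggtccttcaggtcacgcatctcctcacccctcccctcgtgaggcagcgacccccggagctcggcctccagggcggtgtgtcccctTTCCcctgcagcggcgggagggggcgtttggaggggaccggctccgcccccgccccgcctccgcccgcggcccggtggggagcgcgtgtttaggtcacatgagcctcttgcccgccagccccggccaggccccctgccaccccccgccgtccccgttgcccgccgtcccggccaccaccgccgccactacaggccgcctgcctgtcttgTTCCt

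RefSeq windows were matched for 8 of the 10 genes. The ETS core is bound by endothelial factors such as ERG. Read on both strands, it occurred 5 times in the Kdr window, 2 times in that of Tek, 4 times in that of Flt1 and 2 times in that of Vegfb. Of 27025 promoter windows of the same length, 95.9% held at least 1. Counts of at least 5, 4 and 2 were reached by 28.7%, 46.3% and 84.7% of windows. The longer AGGAAG, which contains that core, occurred 2 times in Flt1, 0 times in Kdr and 0 times in Tek. It occurred at least 1 time in 35.1% of all windows and at least 2 times in 8.47%. The clock E-box CACGTG, held by 7.24% of all windows, occurred in none of the 4 windows. The hypoxia core ACGTG, which overlaps the E-box, was in none of them either and in 19.7% of all windows. The GC box GGGCGG occurred 4 times in Vegfb, a count reached by 5.50% of windows. The Tie1 window, not printed, held 9 ETS cores, a count reached by 1.63% of windows.

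Around the receptors, the list of co-receptors, further ligands and partners (17 genes) had 0 called in T497A, with 2 at an unadjusted p under 0.05, and 5 called higher and 1 lower in WT, with medians of 0.15 and 0.09. Over all genes these shares were 0.114% and 11.7% in T497A, and 12.3% higher and 12.6% lower in WT. Svep1, an extracellular ligand of TIE1, changed by 0.63 in T497A (adjusted p = 0.197) and rose by 1.93 in WT (adjusted p = 2.54e-05), and the difference of these effects was -1.30 (adjusted p = 0.0278). Itga5, an integrin subunit that ANGPT2 can bind, changed by 0.15 in T497A (adjusted p = 0.603) and rose by 0.92 in WT (adjusted p = 2.54e-05), a difference of -0.78 (adjusted p = 0.0183). Sema3f, a neuropilin ligand, rose by 0.96 in WT (adjusted p = 0.000535). Ccbe1, which promotes the processing of VEGFC, fell by 1.69 in WT (adjusted p = 0.0432). The co-receptors Nrp1 (-0.21) and Nrp2 (0.35), the ligands Pgf (-0.15) and Vegfd (0.09) and the TEK phosphatase Ptprb (-0.03) were not called in WT.

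Of 23 tested genes of VEGF receptor signalling and feedback, 0 were called in T497A, with 3 at an unadjusted p under 0.05, and 12 were called higher and 0 lower in WT, with medians of 0.14 and 0.47. The shares over all genes were 0.114% and 11.7% in T497A, and 12.3% called higher and 12.6% called lower in WT. With so few genes called in T497A, 0 calls there do not set this list apart. Plcg2, a phospholipase C gamma, changed by 0.51 in T497A (adjusted p = 0.169) and rose by 1.04 in WT (adjusted p = 0.000119). Sphk1, a sphingosine kinase, changed by 1.02 in T497A (adjusted p = 0.350) and rose by 2.46 in WT (adjusted p = 0.000631). Shb, an adaptor of KDR, rose by 0.78 in WT (adjusted p = 0.00136), and Pxn, the focal adhesion protein paxillin, by 0.38 (adjusted p = 0.00748). Between T497A TAC and WT TAC 4 of the 23 were called lower and 0 higher, where 8.70% of all genes were called. Among the 4 were Plcg2 by -0.49 (adjusted p = 0.0382), Sphk1 by -1.69 (adjusted p = 0.017) and Shb by -0.55 (adjusted p = 0.0293). For the difference of effects 0 of the 23 passed and 7 had an unadjusted p under 0.05, against 1.57% and 16.8% of all genes. Many genes of this list are expressed by other cells too, whose markers moved with it: 4 of 8 fibroblast and 7 of 8 macrophage markers were called higher in WT. The fibroblast sum was 2018 to 2111 CPM in T497A TAC against 1642 to 1929 CPM in T497A sham, and 2308 to 2696 CPM in WT TAC against 1654 to 1688 CPM in WT sham. The macrophage sum was 221 to 294 CPM in T497A TAC against 186 to 237 CPM in T497A sham, and 272 to 352 CPM in WT TAC against 166 to 199 CPM in WT sham. Their part in the list was not tested.

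Of 16 tested genes of TIE2 signalling and FOXO1 targets, 0 were called in T497A, with 1 at an unadjusted p under 0.05, and 3 higher and 1 lower in WT, with medians of 0.10 and 0.15. For this list and the next, the shares over all genes were 0.114% and 11.7% in T497A, and 12.3% higher and 12.6% lower in WT. Beside Svep1, Tnip2, an inhibitor of NF-kappaB known to bind TEK, rose by 0.65 (adjusted p = 0.00989), Itgb1 rose by 0.27 (adjusted p = 0.0106), and Grb14, an adaptor that binds TEK, fell by 0.45 (adjusted p = 0.00101). Foxo1 itself, the transcription factor that TEK signalling restrains, changed by 0.03 in WT and was not called. Of 26 hypoxia-inducible factors and targets, of which Vegfa is a well-known target, 0 were called in T497A, with 2 at an unadjusted p under 0.05, and 5 higher and 5 lower in WT, with medians of -0.02 and 0.03. Among those called lower in WT, Epas1, which encodes HIF-2 alpha, fell by 0.30 (adjusted p = 0.00346), Egln1, a HIF prolyl hydroxylase, fell by 0.46 (adjusted p = 0.0015), and Hk2, hexokinase 2, fell by 0.45 (adjusted p = 0.000844).

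Endothelial markers showed where the vessel genes as a whole stood. Beside the counts below, 0.114% of all genes were called in T497A and 11.7% had an unadjusted p under 0.05. In WT 12.3% were called higher and 12.6% lower. Of 14 pan-endothelial markers, 0 were called in T497A, with 0 at an unadjusted p under 0.05, and 2 were called higher and 0 lower in WT, Esam by 0.39 (adjusted p = 0.00257) and Robo4 by 0.30 (adjusted p = 0.0443), with medians of 0.07 and 0.15. Of 10 capillary markers, 0 were called higher and 1 lower in WT, the fatty acid transporter Cd36 at -0.47 (adjusted p = 0.00251). Their sum was 2373 to 2798 CPM in T497A TAC against 2869 to 3111 CPM in T497A sham, and 2081 to 2241 CPM in WT TAC against 2735 to 2862 CPM in WT sham. Most of it was Cd36, with a mean of 1922 CPM in T497A TAC against 2265 CPM in T497A sham, and 1508 CPM in WT TAC against 2089 CPM in WT sham. The change was positive for 4 and negative for 6 of the 10 markers in each genotype. Their mean log2 CPM was 5.37 to 5.51 in T497A TAC against 5.51 to 5.56 in T497A sham, and 5.23 to 5.49 in WT TAC against 5.37 to 5.63 in WT sham. The T497A groups did not overlap, while the WT groups did. Of 13 tip cell and sprouting genes, 4 were called higher and 1 lower in WT, with a median of 0.44. The 4 were Unc5b at 1.00 (adjusted p = 0.00672), Cd34 at 0.76 (adjusted p = 0.00813), Col4a2 at 1.11 (adjusted p = 0.0203) and Col4a1 at 1.18 (adjusted p = 0.0288), and the collagen genes are also made by fibroblasts. Apln, a peptide secreted by tip cells, fell by 1.23 (adjusted p = 0.0172). In T497A 0 of these 13 were called, with 4 at an unadjusted p under 0.05, and the median was 0.42. Of the arterial markers 1 of 10 was called higher in WT, the connexin gene Gja4 at 0.69 (adjusted p = 0.00386), and of the endocardial markers 2 of 5, Npr3 at 0.62 (adjusted p = 0.00148) and Plvap at 1.00 (adjusted p = 0.00306). Of 5 tested venous markers 0 were called in WT, with 0 at an unadjusted p under 0.05. Of 7 smooth muscle markers 1 was called higher and 2 lower in WT, and of 6 erythrocyte markers 4 were called higher. For the pan-endothelial, capillary and tip cell lists, 0 genes passed for the difference between the genotypes' effects, so their calls in WT are not shown to differ from T497A. At an unadjusted p under 0.05 there were 1, 0 and 1 for that difference. Between T497A TAC and WT TAC, 1 pan-endothelial marker was called lower, 1 capillary marker higher and 0 tip cell genes. There 8.70% of all genes were called.

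**Figure D5:**
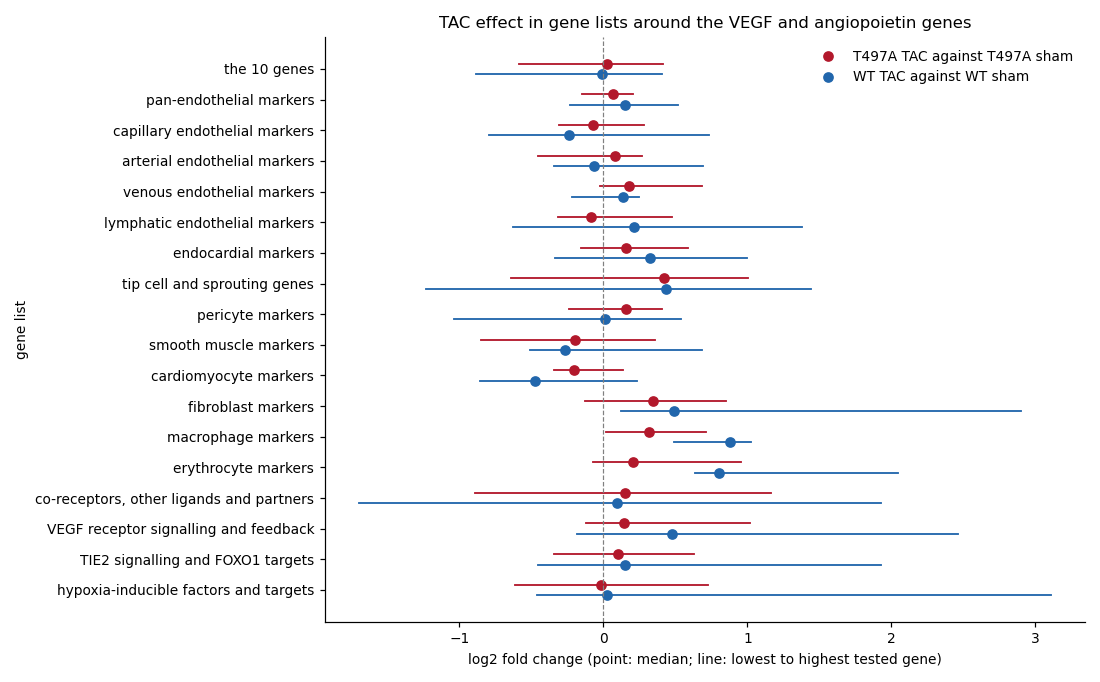
Median log2 fold change (points) and range over tested genes (lines) for TAC against sham in T497A and in WT, for the 10 genes and the 17 lists of related genes and cell type markers. The 10 genes have medians of 0.03 in T497A and -0.01 in WT, and the macrophage markers the highest WT median.

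For each called gene, the 3 genes with the most similar pattern were taken as those with the smallest root mean square difference in centred log2 CPM over the 12 libraries, among 9381 genes with a mean of at least 5 CPM. For Angpt1, whose own root mean square deviation was 0.426, they were Car14 (0.136), Prdm16os (0.152) and Sord (0.156). For Vegfb (own deviation 0.151) they included Mcrip2 (0.0524) and Map7d1 (0.0528). For Flt4 (own deviation 0.190) they were Shc1 (0.0743), Med15 (0.0828) and Agrn (0.0832). For Vegfc (own deviation 0.264) they were Zc2hc1a, Gskip and Sulf2, at 0.122 to 0.130. The likeness of the Vegfc neighbours was weaker, since their differences came to a larger part of the gene's own deviation.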

How the data were processed

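Total RNA of left ventricle was sequenced as single-end mRNA libraries, per the labels' protocols. The deposited table holds raw read counts per gene made by the authors; the submitters' processing notes name build mm10, STAR 2.7.3a, Trim Galore 0.6.4, Subread 1.6.3 with featureCounts, and limma 3.50.3. The sources used here give no strand setting. Groups came from the labels. CPM and tests were computed from these counts with edgeR 4.0.16 in R 4.3.3: TMM factors, a filter on low counts (filterByExpr, minimum count 10), a robust quasi-likelihood fit of all 12 libraries over 4 groups, and Benjamini-Hochberg adjustment over 15764 genes, after testing on simulated data. Alternatives used DESeq2 1.42.0 and limma 3.58.1. Exon lengths come from GENCODE on GRCm38, matched for 55141 of 55401 genes.

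The 10 genes and the 17 lists were chosen with earlier results of these data known; the clock and glucocorticoid lists were added after values were seen. From each list up to 4 genes with the smallest p in the TAC average are named, and any that a result turns on. A few genes that these rules select are not reported here. Libraries differed from each other by more than sampling noise in every group. All 12 carry a single batch date.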

Additional observations from a re-analysis of the deposited data

How the results depend on the processing

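Of 1120 combinations of gene, comparison and setting, 1103 kept their side of the threshold, 7 lost a call and 10 gained one. Reversals of direction were counted only where a gene was called, and there were 0. Some changes that were not called did switch sign between settings. In T497A TAC against T497A sham, Kdr ranged from -0.13 to 0.46 and Vegfa from -0.08 to 0.04. For T497A TAC against T497A sham, DESeq2 and the fit without a filter on low counts each called 1 gene, Angpt1, in place of 0. For T497A TAC against WT TAC, the same pair of settings each called 1 gene, Flt4, and leaving out libraries gave 0 to 1. Leaving out libraries gave 0 to 1 for the difference of effects (Flt4) and 2 to 5 for the TAC average, with 5 without T497A TAC replicate 3. The cause was not tested. For WT TAC against WT sham every such fit called 3, and for the sham groups 0. Scaling to the pan-endothelial markers moved the median of all genes to -0.14 in WT, 0.13 in T497A TAC against WT TAC and 0.14 in the difference of effects, and called 2 genes in WT TAC against WT sham and 2 in the TAC average, where Vegfc stood at 0.28 (adjusted p = 0.144). Depth limits Angpt2 and Vegfc, the genes with the fewest counts. No paired analysis was made, since the labels give no key that pairs libraries. All sample titles carry the same replicate number, so the replicate numbers used here were assigned in the order of the deposited samples.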
